A study of Mus musculus with 4 samples.

Results

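Heat shock and chaperone genes encode the proteins that fold other proteins, hold unfolded ones in solution and disassemble aggregates. In the cytosol, heat, oxidation and other damage release the transcription factor HSF1, which switches on an inducible set led by the Hsp70 genes Hspa1a and Hspa1b, while a constitutive set such as Hspa8 and Hsp90ab1 serves unstressed cells. In the endoplasmic reticulum a separate set led by Hspa5 (BiP) follows the load of secreted protein. The inducible genes are also known to respond to the warming and enzyme digestion that turn a tissue into single cells.

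The 36 genes described here were chosen by name from these families, and each was found by its symbol among the 55450 genes of the deposited matrix. They comprise 14 genes of the heat-inducible cytosolic set, 3 small heat shock proteins, 5 constitutive cytosolic chaperones, 3 mitochondrial chaperones, 9 chaperones of the endoplasmic reticulum and 2 heat shock factors. Levels are given in CPM, the UMIs (unique molecular identifiers, 1 per captured RNA molecule) of a gene per 1000000 UMIs summed over a class of cells. Brackets hold exact 95% Poisson or Clopper-Pearson intervals, which cover counting error only and not differences between mice.

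The cells came from tumours of 4T1, a mouse mammary carcinoma line, of which 1000000 cells had been implanted in the right flank of female BALB/c mice aged 6 to 8 weeks. All mice received an intravenous injection on day 7, 980 nm near-infrared (NIR) light at 1.0 W cm-2 on days 8, 9 and 10 (5 min each time), and had the tumour removed on day 13, after which cells were sorted for CD45, the leucocyte protein encoded by Ptprc. Of the 4 samples, 2 (LC-2 and LC-5) belong to the PBS group, so these controls had the light as well, and 1 (LC-6) to the TIOs+NIR3 group. TIOs are macrophages killed in liquid nitrogen and filled with upconverting particles that carry the photosensitiser Ce6, azobenzene and the GPX4 inhibitor RSL3. The sample titled PBS was left without a group, because its protocol names TIOs.

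The matrix holds 4 libraries, told apart by barcode suffix, and nothing in the sources used here says which sample a suffix stands for. The treatment of each library is therefore unknown, PBS and TIOs+NIR3 were not compared, and no p-value was computed. Libraries are described one by one. Heating of the tumour, tissue dissociation and cell composition cannot be told apart by library.

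After removal of barcodes with under 300 genes or over 15% mitochondrial UMIs, 32133 of 33064 barcodes were kept, with 354742109 UMIs and 6783 to 8889 cells per library. Median depth ranged from 2641.5 to 11698.0 UMIs per cell, with library 1 the deepest. Marker genes placed 27637 cells in 13 classes, and 14.0% of the kept cells met no gate. Between libraries, 190 kept barcodes shared their sequence. Not all cells had leucocyte RNA, as Ptprc was at 10.4 CPM in 4285 tumour/epithelial-like cells and 18.4 CPM in 4430 fibroblast-like cells, against 694 CPM in 9147 neutrophil-like cells. The fibroblast-like cells also held the T-cell gene Cd3e at 152 CPM, against 674 CPM in T-like cells. Of the tumour/epithelial-like cells, 4017 lay in library 1, 267 in library 2, 0 in library 3 and 1 in library 4. Only neutrophil-, monocyte-, macrophage-, T- and fibroblast-like cells reached 20 cells in every library, so comparisons across all libraries use these 5 classes.

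The 36 genes made up 1.17% of all UMIs of kept cells. By class, the share was lowest in neutrophil-like cells at 0.369% [0.366 to 0.372] and highest in tumour/epithelial-like cells at 1.48%, with fibroblast-like cells at 1.24%, macrophage-like cells at 1.09%, T-like cells at 0.997% and monocyte-like cells at 0.740%. Neutrophil-like cells had the lowest share of the 5 classes within every library, from 0.336% in library 3 to 0.543% in library 1. Fibroblast-like cells ranged from 1.03% in library 2 to 1.35% in library 3, so the values of these classes did not overlap. The median over libraries of the fibroblast-to-neutrophil ratio was 3.28. Gated neutrophil-like cells were shallow, with a median of 1817.0 UMIs against 26921.0 in fibroblast-like cells. The ratio was also 3.28 after cells had been thinned to 1000 UMIs, with shallower cells left out. Thinning leaves the expected share of a cell unchanged, so that value cannot show the part of depth, which was not tested.

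**Figure D1:**
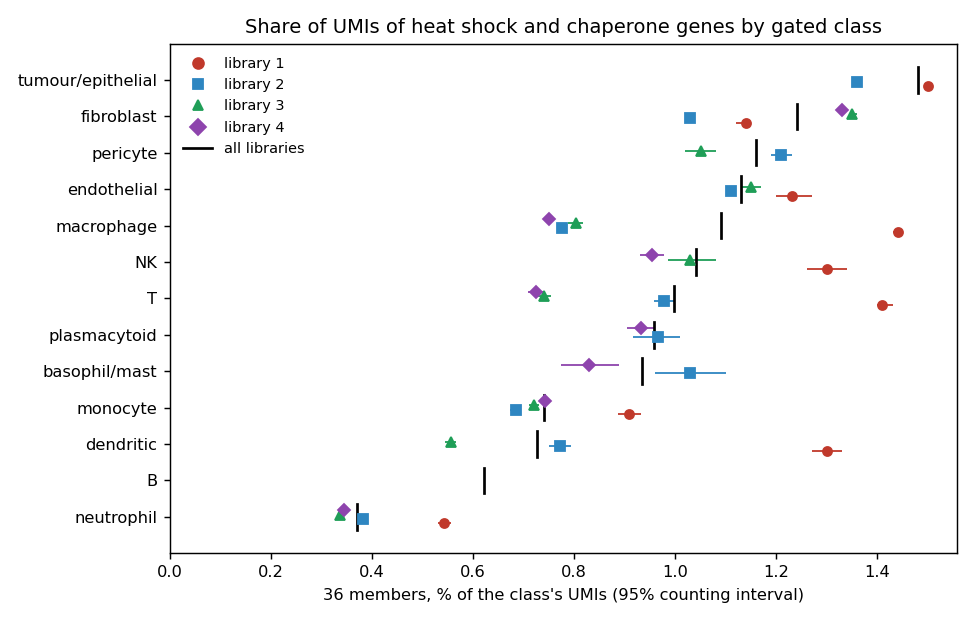
Share of UMIs (%) of the 36 heat shock and chaperone genes in each gated class. Coloured points are libraries with at least 20 cells of the class, bars are exact 95% counting intervals and black lines are all libraries pooled. Neutrophil-like cells sit lowest, between 0.336% and 0.543%, and macrophage-like cells split into 1.44% in library 1 and 0.749% to 0.803% in the others.

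Library 1 stood apart in macrophage-like and T-like cells. Macrophage-like cells held 1.44% in library 1 and 0.776%, 0.803% and 0.749% in libraries 2, 3 and 4. In T-like cells library 1 was also highest, with 1.41% in library 1 and 0.978%, 0.741% and 0.725% in the others. The median share per monocyte-like cell was 0.807% in library 1 and 0.621%, 0.639% and 0.692% in libraries 2, 3 and 4. In fibroblast-like cells, by contrast, library 1 lay inside the range of the others at 1.14%.

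Hspa1a and Hspa1b encode the strictly inducible cytosolic Hsp70. They are near-identical copies that lie side by side on the minus strand of chromosome 17 in GRCm38, Hspa1a at chr17:34969190-34972156 and Hspa1b at chr17:34956436-34959238. The split of reads between them can depend on how reads that match both copies were counted, so their sum is given as well. The 250 bases before each RefSeq start (GRCm38.p6, minus strand, chr17:34972157-34972406 for Hspa1a and chr17:34959239-34959488 for Hspa1b) are shown because the copies are so alike here too. Capitals mark the 3 bases at which they differ, and the other 247 are equal.

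Hspa1a: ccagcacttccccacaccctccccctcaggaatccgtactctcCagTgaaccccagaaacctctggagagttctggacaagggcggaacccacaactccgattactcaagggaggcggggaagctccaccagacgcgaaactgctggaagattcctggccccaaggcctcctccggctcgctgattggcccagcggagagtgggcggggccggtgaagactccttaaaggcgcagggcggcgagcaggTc
Hspa1b: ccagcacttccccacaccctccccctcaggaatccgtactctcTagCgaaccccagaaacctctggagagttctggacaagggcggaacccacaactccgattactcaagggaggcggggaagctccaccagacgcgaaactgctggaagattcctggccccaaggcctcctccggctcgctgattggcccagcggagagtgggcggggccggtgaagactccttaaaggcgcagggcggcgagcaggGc

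Macrophage-like cells held more of both genes than the other 4 classes in every library. Hspa1a in macrophage-like cells was at 1794.3 CPM in library 1, 396 in library 2, 168 in library 3 and 101 in library 4. In neutrophil-like cells it was at 293, 30.1, 29.2 and 27.0 CPM in the same order. Dendritic-like cells, of which there were only 33, 47 and 199 in libraries 1, 2 and 3, had 1788.1, 520 and 63.7 CPM, above the macrophage-like level in library 2 and below it in library 3. Macrophage-like values were 3.74 to 13.2 times those of neutrophil-like cells of the same library. In library 3, however, a single macrophage-like cell held 49.3% of the UMIs of the pair in its class. The pair made up 0.0260% of the class's UMIs with that cell and 0.0133% without it, below the 0.0205% of monocyte-like cells, so the leading place of macrophage-like cells in library 3 rests on that cell.

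Library 1 had the highest level of both genes in each of the 5 classes. T-like cells differed most. Their Hspa1a level was 853 CPM in library 1 and 44.3, 31.6 and 39.5 in libraries 2, 3 and 4, a span of 27.0-fold. The span was 17.8-fold in macrophage-like, 10.9-fold in neutrophil-like, 9.56-fold in fibroblast-like and 9.39-fold in monocyte-like cells. For Hspa1b it ran from 5.58-fold in fibroblast-like to 20.7-fold in T-like cells. In none of these classes did library 1 overlap the other libraries for either gene, whereas the rest lay close together in neutrophil-like cells, where the span of the pair fell from 9.41-fold to 1.33-fold once library 1 was left out. In macrophage-like cells the pair spanned 15.2-fold with all libraries, 4.27-fold without library 1, 9.46-fold without library 4 and 41.5-fold under a stricter gate, which asked for 1 more marker and for no second class to reach its own minimum.

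Immediate-early genes such as Fos and Jun, which respond to many kinds of disturbance including dissociation, were also highest in library 1 in 4 of these classes. Their 15 genes together made up 2.69% of macrophage-like UMIs in library 1 and 0.993% to 1.65% in the others. In T-like cells the values were 1.79% in library 1 and 0.622% to 0.986% elsewhere, and in monocyte-like and fibroblast-like cells library 1 was also highest, at 2.29% and 1.69%. Neutrophil-like cells differed, with 2.67% in library 1 and 3.04% in library 4. Ribosomal protein genes were high in library 1 as well, at 6.75% of neutrophil-like UMIs against 3.11% to 3.36%, and at 17.3% of macrophage-like UMIs against 8.84% to 11.7%, whereas in fibroblast-like cells library 1 was lowest at 15.4%. The part of these shifts in the result was not tested.

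**Figure D2:**
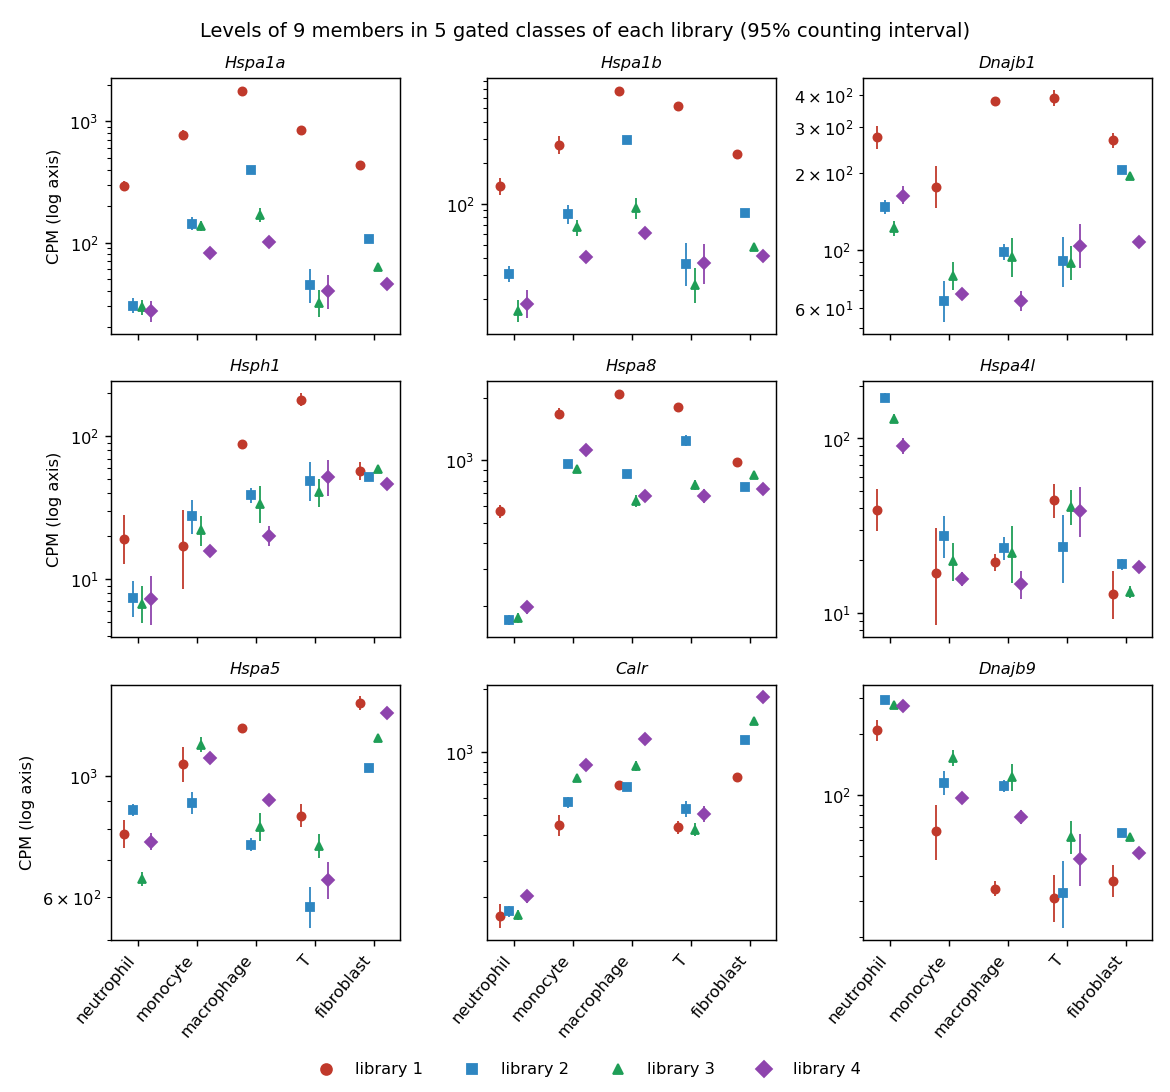
Levels in CPM (log axis) of 9 members in 5 gated classes. Each point is 1 library with its exact 95% counting interval. Library 1 is highest for Hspa1a and Hspa1b in all 5 classes, as in macrophage-like cells for Hspa1a, with 1794.3 CPM against at most 396.

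Some co-chaperones of Hsp70 were also highest in library 1 in immune cells, and others were not. Dnajb1, the Hsp40 that hands substrates to Hsp70, was at 379 CPM in library 1 macrophage-like cells and at 98.9, 94.6 and 63.5 CPM in libraries 2, 3 and 4. Its T-like values were 389, 90.9, 89.6 and 104 CPM. Hsph1, the Hsp110 nucleotide exchange factor, was at 181 CPM in library 1 T-like cells against 40.6 to 51.7 CPM, and at 87.8 against 20.1 to 38.6 CPM in macrophage-like cells. Dnaja1, another Hsp40, was at 780 CPM in library 1 T-like cells against 245 to 301 CPM. For these genes library 1 did not overlap the rest in T-like and macrophage-like cells. In monocyte-like cells Hsph1 was instead at 17.0, 27.6, 22.0 and 15.8 CPM in libraries 1 to 4. Bag3, a nucleotide exchange factor for Hsp70, was lowest in library 1 in neutrophil-like cells, at 7.12 against 9.93 to 13.1 CPM, and in monocyte-like cells, at 26.3 against at least 31.6 CPM. Dnajb4, a further Hsp40, was lowest in library 1 in both classes as well, at 10.7 and 15.5 CPM. In neutrophil-like and monocyte-like cells Hsph1, Bag3 and Dnajb4 did not pass the 50 CPM minimum for folds. Their order of libraries there is given as a description only.

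The fibroblast-like cells behaved differently. Hsph1 there was at 57.3, 52.3, 59.3 and 46.2 CPM in libraries 1 to 4, and Hsp90aa1, the inducible Hsp90, was highest in library 3 at 1313.3 CPM against 876 in library 1. Dnajb1 was at 267, 204, 194 and 108 CPM, a 2.47-fold span in which library 4 was low rather than library 1 high. Only the Hspa1 pair was thus far higher in library 1 among these inducible members of fibroblast-like cells.

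To describe the groups without selecting on library 1, members were taken that reached 50 CPM in the median of the other 3 libraries, a filter chosen after the data were seen. The median log2 ratio of library 1 to that median was 1.22 over 7 inducible members in macrophage-like, 0.99 over 6 in monocyte-like, 0.75 over 4 in neutrophil-like and 0.50 over 7 in T-like cells. All genes that passed had medians of -0.32, -0.16, -0.17 and -0.23. In T-like and neutrophil-like cells the Hspa1 pair did not pass. Including members that reached 50 CPM in library 1, which does select on that library, gave a T-like median of 1.44 over 10 members. In fibroblast-like cells the inducible median was -0.13 over 9 members, beside -0.16 for all genes. The reticulum members had medians of -0.76 over 8 in monocyte-like, -0.68 over 9 in fibroblast-like and -0.38 over 5 in neutrophil-like cells, below those of all genes. In T-like and macrophage-like cells their medians of -0.22 and -0.21 lay near or above those of all genes. Immediate-early genes had medians of 1.10 in macrophage-like, 1.05 in T-like, 0.98 in fibroblast-like, 0.88 in monocyte-like and 0.14 in neutrophil-like cells.

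The share of members that differed between libraries lay near the share of all genes, and most of these members were highest in library 1. In neutrophil-like cells 8 of the 21 members measured spanned at least 2-fold from lowest to highest library, that is 38.1%, beside 40.9% of all genes measured. The shares were 6 of 22 members beside 24.8% of genes in monocyte-like cells, 10 of 27 beside 37.5% in macrophage-like cells, 10 of 26 beside 38.8% in T-like cells and 10 of 31 beside 26.7% in fibroblast-like cells. Of the 8 members that spanned 2-fold in neutrophil-like cells, 7 were highest in library 1, as were 333 of the 1147 genes that spanned 2-fold. The counts were 4 of 6 members and 212 of 845 genes in monocyte-like cells. They were 9 of 10 and 380 of 1373 in macrophage-like cells, and 8 of 10 and 271 of 1563 in T-like cells. In fibroblast-like cells they were 5 of 10 and 358 of 1005. Of all members measured, 7 of 21, 4 of 22, 9 of 27, 8 of 26 and 5 of 31 thus spanned 2-fold with library 1 highest, in this order of classes. The matching shares of all genes measured were 11.9%, 6.23%, 10.4%, 6.73% and 9.49%. Some members reached 50 CPM only in library 1, 3 in neutrophil-like, 3 in macrophage-like and 2 in T-like cells. Of the 13 members at 50 CPM in every library of neutrophil-like cells, 4 spanned 2-fold with library 1 highest, beside 9.84% of genes, and the counts were 8 of 21 in macrophage-like cells (7.31%) and 5 of 21 in T-like cells (4.16%). Without library 1, 0 of 18 members spanned 2-fold in neutrophil-like cells, beside 14.4% of genes.

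Constitutive Hsp90 and Hsc70 were highest in library 1 in the immune classes as well. Hsp90ab1, the constitutive Hsp90, was at 987 CPM in library 1 neutrophil-like cells and at 294, 281 and 295 CPM in libraries 2, 3 and 4. Hspa8, the constitutive Hsc70, was at 569 CPM against 171, 174 and 196 CPM in the same cells. In macrophage-like cells Hspa8 was at 2084.2 CPM in library 1 and 641 to 857 CPM elsewhere. With libraries pooled, the highest class was tumour/epithelial-like cells, at 5311.7 CPM for Hsp90ab1 and 1940.2 CPM for Hspa8. Those cells lay almost wholly in library 1, and their part in the levels of the immune classes was not tested. The other constitutive members, Hspa4, Dnaja2 and Dnajb6, each spanned under 2-fold in all 5 classes.

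Hspa4l, an Hsp110-family relative of Hsph1, ran against its group. Neutrophil-like cells held 130 CPM over all libraries, against 14.5 to 43.7 CPM in the other classes in which it was found. Within neutrophil-like cells library 1 was lowest, at 39.1 CPM, with 171, 130 and 90.7 CPM in libraries 2, 3 and 4. Neutrophil-like cells led in libraries 2, 3 and 4, and T-like cells, at 44.2 CPM, in library 1.

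The split of the Hspa1 UMIs between the copies differed by class. Hspa1a held 72.8% [72.4 to 73.3] of the pair's UMIs in library 1 macrophage-like cells and 68.6% in library 1 neutrophil-like cells. Across monocyte-, macrophage-, dendritic-, T- and fibroblast-like cells of all libraries it held 52.0% to 74.1%. In tumour/epithelial-like cells it held 24.0% [23.4 to 24.6] in library 1 and 2.58% [2.14 to 3.08] in library 2, below every other class of the same libraries in which the pair had at least 100 UMIs. Hspa1b levels were 217 CPM and Hspa1a levels 54.5 CPM in these cells.

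In library 2 this split came largely from few cells. Of its 267 tumour/epithelial-like cells, the 10 highest held 76.9% of the pair's UMIs, and 1 cell alone held 1115 UMIs of Hspa1 among its 15009. The 10 cells had 7 UMIs of Hspa1a and 3517 of Hspa1b, a share of 0.199% [0.0799 to 0.409]. The other 257 cells had 10.5% [8.73 to 12.5] Hspa1a. In library 1 the 10 highest tumour/epithelial-like cells were at 49.8% and the other 4007 at 22.6%, so the low share there did not rest on a few cells. Whether the counting of shared reads has a part in the difference between classes was not tested.

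**Figure D3:**
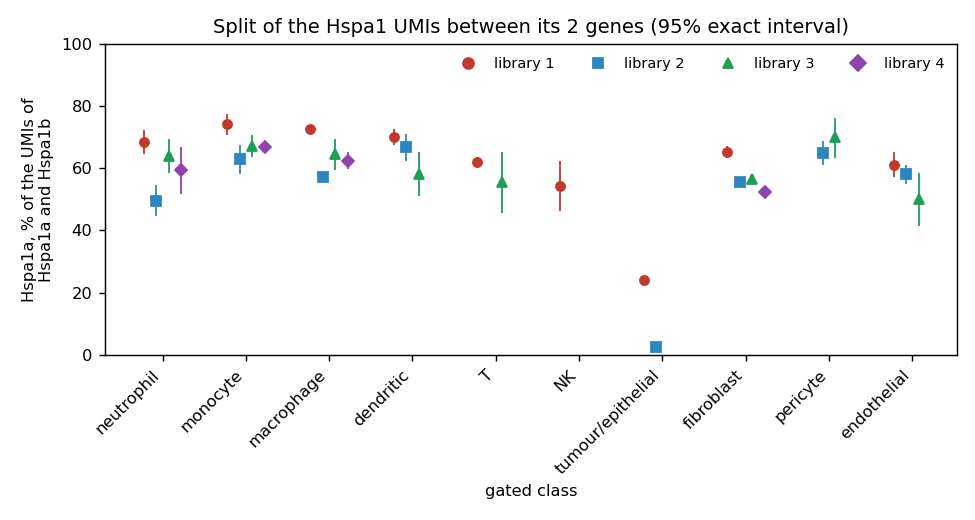
Hspa1a as a percentage of the UMIs of Hspa1a and Hspa1b, by gated class and library, where the pair had at least 100 UMIs. Points are libraries and bars exact 95% Clopper-Pearson intervals. Tumour/epithelial-like cells lie at 24.0% and 2.58%, below every other class shown.

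Within a class the Hspa1 UMIs were spread unevenly over cells. After thinning to 1000 UMIs per cell, 500 of 1348 library 1 macrophage-like cells (37.1% [34.5 to 39.7]) had at least 3 Hspa1 UMIs, against 7.60% of 1105 in library 2, 1.32% of 228 in library 3 and 2.04% of 835 in library 4. Among T-like cells, 20.4% of 378 reached this level in library 1, and 0 of 86, 0 of 442 and 2 of 169 in the others, where a count of 0 allows up to 4.20% and 0.831%. At the same time 35.1% of library 1 macrophage-like cells had no Hspa1 UMI, although a Poisson spread around their mean of 2.39 would leave 9.17%. Thinning left out 86 shallower macrophage-like cells in library 1, and before it 86.5% of the cells had a UMI of the pair.

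Cells rich in Hspa1 also held more Dnaja1, Dnajb1 and Hsp90aa1, while reticulum members stayed under 2-fold in macrophage-like cells of library 1. In library 1 macrophage-like cells, the 500 cells with at least 3 Hspa1 UMIs were set against the 473 cells with 0, with Hspa1 taken out of the totals. Dnaja1 was 5.15-fold, Hsph1 4.70-fold, Dnajb1 3.83-fold and Hsp90aa1 2.58-fold higher in the Hspa1-rich cells. These were the 4 inducible members that reached 100 CPM in either set of cells, where 2.31% of all genes were at least 2-fold higher. The inducible members under that limit ranged from 0.916-fold for Stip1 to 3.09-fold for Dnajb4. Among them Fkbp4 was at 0.951-fold, Ahsa1 at 1.29-fold and Bag3 at 2.17-fold. Hsph1 passed only through the Hspa1-rich cells, and of members at 100 CPM in the cells with 0, a filter chosen after the data were seen, 3 of 3 were at least 2-fold higher, beside 1.49% of genes. Of the 6 reticulum members measured, 0 were, with Hspa5 at 1.32-fold and Calr at 0.877-fold. Of 15 immediate-early genes, 7 were, led by Jun at 2.73-fold and Atf3 at 2.47-fold. With a limit of 2 or 5 UMIs, chosen after the data were seen, the Dnaja1 fold was 4.63 and 6.57.

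Hspa1-rich cells and cells with 0 were compared in 5 further sets. In library 2 macrophage-like cells 5 of 5 inducible members measured were at least 2-fold higher in the 84 Hspa1-rich cells, beside 6.56% of genes. Hsph1, Dnajb1 and Bag3 passed only through those cells, and with the filter on cells with 0 the count was 2 of 2, beside 2.21%. In library 1 T-like cells 4 of 6 were, beside 7.01%, with Dnajb1 at 5.66-fold, and 3 of 5 with that filter, beside 2.0%, since Hsph1 passed only through the Hspa1-rich cells. In library 2 fibroblast-like cells 5 of 6 were, beside 18.6%, on only 31 Hspa1-rich cells. Hsph1 and Dnajb4 there rested on 4 and 6 UMIs and passed only through those cells, and the count with the filter on cells with 0 was 3 of 4, beside 4.40%. In library 1 tumour/epithelial-like cells 4 of 8 inducible members were, beside 11.1% of genes, and 3 of 4 with that filter, beside 3.56%. Hsph1 and the small heat shock protein Hspb1, on 9 and 10 UMIs, passed only through the Hspa1-rich cells. In library 4 monocyte-like cells, with 22 Hspa1-rich cells, 1 of 2 was, beside 19.1%, and beside 4.60% with that filter. Reticulum members reached 2-fold in these 5 sets only through Dnajb11 in fibroblast-like cells, at 2.33-fold on 6 UMIs, and 0 of them did with the filter on cells with 0.

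**Figure D4:**
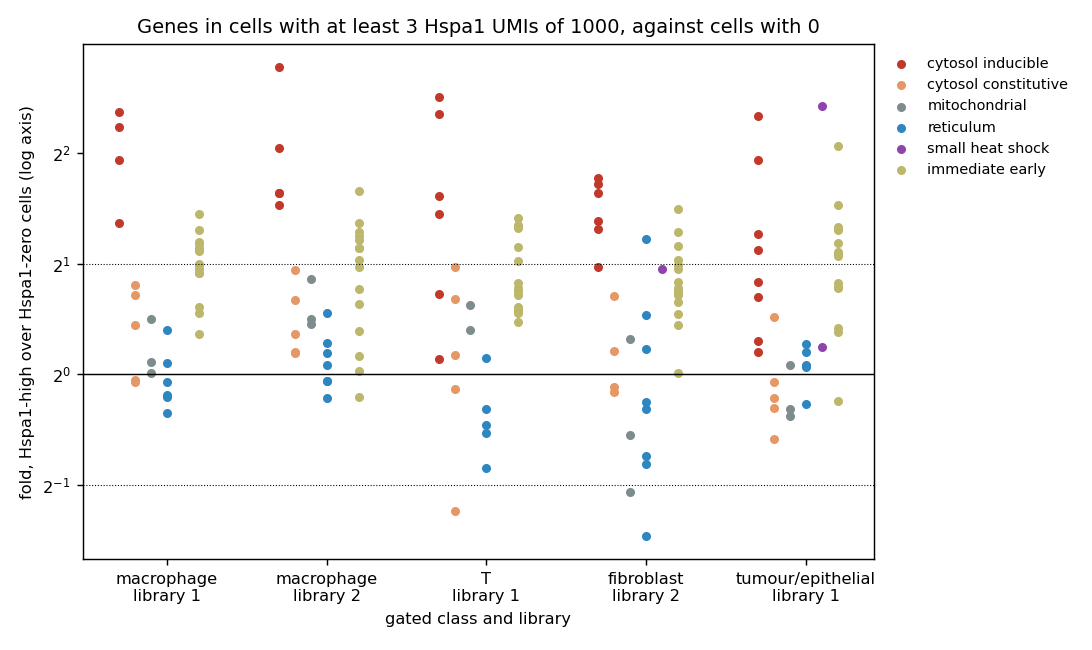
Fold (log axis) of single genes between cells with at least 3 Hspa1 UMIs of 1000 and cells with 0, in 5 sets of cells. Each point is a gene measured at 100 CPM or more, coloured by list, and dotted lines mark 2-fold. In library 1 macrophage-like cells the inducible members that reached this level lie between 2.58 and 5.15, and Hspa5 lies at 1.32.

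The small heat shock proteins were highest in pericyte-like or tumour/epithelial-like cells, each with its own pattern. These proteins bind unfolded proteins without using ATP and are abundant in contractile cells. Hspb1 (Hsp27) was at 742 CPM in 102 pericyte-like, 277 in endothelial-like, 167 in fibroblast-like and 38.5 in tumour/epithelial-like cells, against 12.3 CPM in neutrophil-like and 11.7 CPM in T-like cells. Cryab (alpha-B-crystallin) was at 365 CPM in pericyte-like, 109 CPM in fibroblast-like and 36.3 CPM in tumour/epithelial-like cells, but at 5.24 CPM in endothelial-like cells, its lowest class, and at 32.9 CPM in basophil/mast-like cells. Hspb8, a partner of Bag3, differed in being highest in tumour/epithelial-like cells at 113 CPM, with 17.0 CPM in endothelial-like cells. Among leucocyte classes these genes stayed at or under 32.9 CPM, and Col3a1, a collagen gene that neutrophils should lack, was at 537 CPM in neutrophil-like and 11499.8 CPM in fibroblast-like cells, so that low levels of stromal genes in leucocytes are not read as expression.

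Within fibroblast-like cells the small heat shock proteins varied between libraries. Cryab was at 249, 104, 160 and 50.4 CPM in libraries 1 to 4, a 4.93-fold span with library 1 high and library 4 low. Hspb1 was at 281, 187, 113 and 195 CPM, with library 3 lowest. Hspb8 spanned only 1.29-fold. Each of the 3 was higher in fibroblast-like than in macrophage-like cells in every library, by 6.09- to 22.1-fold, and they were the only 3 of the 27 members measured that were at least 2-fold higher throughout, beside 13.8% of genes, although each passed only through fibroblast-like cells. Hspa1a alone was at least 2-fold lower throughout, beside 11.6%. In library 3, however, 1 macrophage-like cell held 49.3% of the UMIs of the Hspa1 pair in its class. Without that cell the pair made up 0.0133% of macrophage-like UMIs there, beside 0.0111% of fibroblast-like UMIs.

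**Figure D5:**
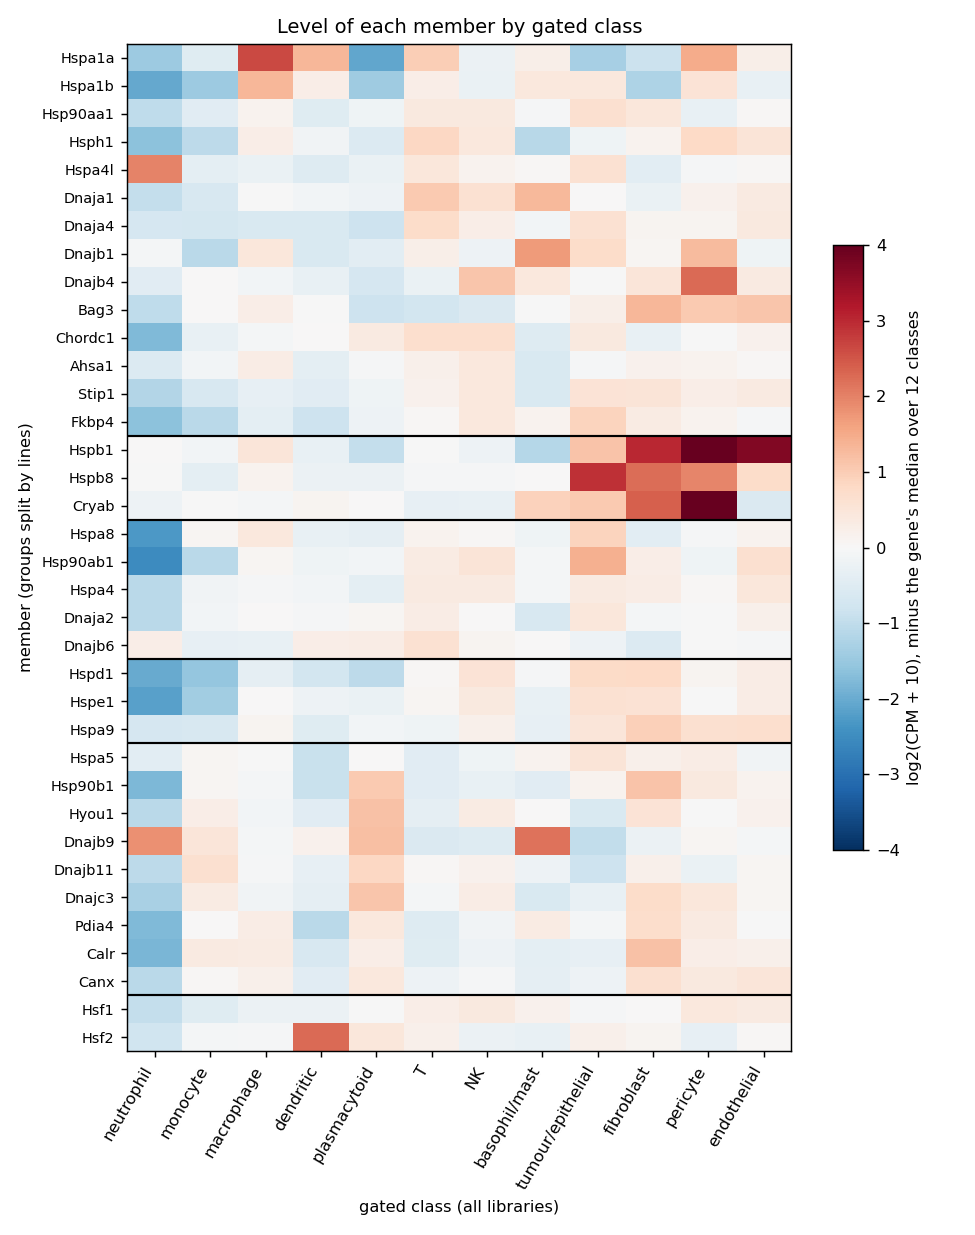
Level of each of the 36 members (rows, groups split by lines) in 12 gated classes (columns) with all libraries pooled. Colours show log2(CPM + 10) minus the gene's median over the 12 classes and saturate at 4 on either side. The small heat shock rows are high in pericyte-like and fibroblast-like cells, and in neutrophil-like cells Hspa4l, at 130 CPM, and Dnajb9, at 278 CPM, lie above their gene's median.

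The chaperones of the endoplasmic reticulum differed by class and, unlike the Hspa1 pair, were not highest in library 1 of fibroblast-like cells. Their 9 genes made up 0.530% of fibroblast-like UMIs, 0.456% of plasmacytoid-like, 0.352% of monocyte-like, 0.325% of macrophage-like and 0.165% of neutrophil-like UMIs. The first 2 are known as heavy secretors, of collagen and of interferon. In fibroblast-like cells the share was 0.387%, 0.444%, 0.498% and 0.650% in libraries 1 to 4, so library 1 was lowest and library 4 highest, the reverse of the Hspa1 pair. The median fibroblast-to-neutrophil ratio of the reticulum share was 2.96.

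Promoters of this group hold a known element. The endoplasmic reticulum stress element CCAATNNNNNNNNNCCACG, read on both strands, was found in 0.119% of 32851 RefSeq promoters of 300 bases (GRCm38.p6). Of the 37 promoters of members it was found in 5, which belong to 5 of the 8 reticulum members with an entry. It was found in promoters of 0 of the other members with an entry. The sites, with 8 bases on either side and the element in capitals, are shown because they are what these genes share. All lie before the start, Hspa5 at chr2:34772017-34772051 (plus strand), Calr at chr8:84847067-84847101 (minus), Canx at chr11:50325792-50325826 (minus), Dnajc3 at chr14:118937819-118937853 (plus) and Hsp90b1 at chr10:86705630-86705664 and chr10:86705525-86705559 (minus).

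Hspa5: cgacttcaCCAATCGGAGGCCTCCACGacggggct
Calr: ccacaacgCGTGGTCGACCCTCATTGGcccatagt
Canx: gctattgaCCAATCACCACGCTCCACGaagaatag
Dnajc3: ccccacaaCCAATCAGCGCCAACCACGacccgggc
Hsp90b1, first site: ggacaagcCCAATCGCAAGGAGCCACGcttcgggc
Hsp90b1, second site: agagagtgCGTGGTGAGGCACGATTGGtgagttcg

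A match is a description of the letters and not evidence of binding. Of these genes Calr, the calcium-binding lectin chaperone calreticulin, was at 762, 1141.7, 1407.5 and 1843.2 CPM in fibroblast-like cells of libraries 1 to 4. Hsp90b1 (Grp94) was at 1060.6, 1334.7, 1447.2 and 2188.6 CPM. Both were lowest in library 1 and highest in library 4, as was Canx, the membrane-bound relative of calreticulin, at 241 and 462 CPM. Hspa5 did not share this order. It was at 1362.2, 1036.7, 1173.1 and 1309.2 CPM, highest in library 1.

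Hspa5 was also the member of its group with the least difference between classes, at most 2.03-fold between the highest and the lowest of the 5 classes in a library. Dnajc3 (p58IPK), Dnajb11 (ERdj3) and Hyou1, co-chaperones of Hspa5, were highest in 117 plasmacytoid-like cells, at 304, 193 and 93.1 CPM, and Hsp90b1 there was at 1556.9 CPM. Pdia4, a disulphide isomerase, reached 135 CPM in fibroblast-like cells, its highest class. Across 37 points of class and library, the median Pearson r of log2(CPM + 10) between reticulum members was 0.70, and between inducible members 0.38. These points share libraries and depth, so the values are given as a description only.

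Dnajb9 (ERdj4), which directs misfolded protein in the reticulum to degradation, broke from its group. Neutrophil-like cells had the highest level of the 5 classes in every library, at 209, 295, 279 and 275 CPM. Macrophage-like cells were at 34.7, 111, 123 and 78.1 CPM, with library 1 lowest. No macrophage-like value reached a neutrophil-like one. Basophil/mast-like cells had 355 CPM, on only 78 cells that also held Cd3e at 441 CPM. Its promoter held no match to the elements searched, which says only that these letters are not in that window.

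Mitochondrial chaperones were low in neutrophil-like and monocyte-like cells, with Hspd1 at 48.5 and 71.5 CPM there and at 400 CPM in fibroblast-like cells. Hspd1 (Hsp60) and its lid Hspe1 (Hsp10) lie head to head on chromosome 1, and the 0.603% of RefSeq promoters that held the heat shock element GAANNTTCNNGAA on either strand included those of both. In the Hspd1 promoter (minus strand) overlapping matches lie at chr1:55088056-55088084 and chr1:55088051-55088079, and the same letters serve Hspe1 on the other strand.

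Hspd1, first match: gcggggccTTCCGGAAGGTTCtagaacgg
Hspd1, second match: gccttccgGAAGGTTCTAGAAcggaccgt

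Matches were found in 7 of 37 member promoters, which belong to 5 of 29 members with an entry. Besides Hspd1 and Hspe1 these were Dnajb6, Hsph1 and Chordc1, and the Hspa1 pair had none of these exact letters. Hspd1 was at 574 CPM in library 3 fibroblast-like cells and at 240, 249 and 369 CPM in libraries 1, 2 and 4, so library 3 stood apart. In neutrophil-like cells it was at 41.1 to 78.3 CPM. Hspa9 (mortalin) had the same leading library in fibroblast-like cells, 328 CPM in library 3 against 160 to 188 CPM.

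Between classes, 17 of 26 members measured were at least 2-fold higher in fibroblast-like than in neutrophil-like cells in every library, beside 39.4% of all genes measured. Of these 17, 8 stayed under 50 CPM in neutrophil-like cells of every library and so passed only through fibroblast-like cells, where they are high. Among the 13 members at 50 CPM in neutrophil-like cells of every library, 5 were at least 2-fold higher, beside 13.2% of genes. With no filter 24 of all 36 were, a count for which the share of all genes was not computed. The 17 comprised all 3 small heat shock proteins, all 3 mitochondrial members and 6 of 8 measured reticulum members. A further 3 of 7 inducible and 2 of 5 constitutive members were among them. The small heat shock proteins, the inducible Bag3, Stip1 and Fkbp4, and the reticulum members Dnajb11 and Pdia4 were the 8 that passed only through fibroblast-like cells. The 5 left by the filter on neutrophil-like cells were Hspe1, Hsp90b1, Calr, Canx and Hsp90ab1, the last at a median of 7.10-fold. Dnajb9 was the 1 member higher in neutrophil-like cells throughout, beside 18.2% of genes.

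Against the same neutrophil-like cells, 11 of 22 members were at least 2-fold higher in macrophage-like cells throughout, beside 28.5% of genes, and 13 of 22 in T-like cells, beside 34.2%. With the filter on neutrophil-like cells, these counts were 6 of 13 in each, beside 13.0% and 15.0%. Dnajb9 was again the 1 member lower in each, beside 11.7% and 15.5%. Both comparisons use the neutrophil-like cells of the first, so they are not independent of it. Macrophage-like and monocyte-like cells differed by 2-fold throughout in 0 of 22 members, beside 1.31% and 2.26% of genes in the 2 directions. T-like cells were 2-fold higher than macrophage-like cells throughout in 0 of 24 members, beside 8.99%, and lower in 1, Hspa1a, beside 11.7%.

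Chaperones outside the 36 genes were compared in the same way, but not with the filter on neutrophil-like cells. Genes of these lists may thus have passed only through fibroblast-like cells. Of all genes measured, 39.4% were at least 2-fold higher in fibroblast-like cells throughout and 18.2% were at least 2-fold lower. In fibroblast-like over neutrophil-like cells, 9 of 16 measured genes of a list of 25 further cytosolic chaperones were at least 2-fold higher throughout, led by the chaperonin subunits Cct6a at 7.49-fold, Cct3 at 7.03-fold and Tcp1 at 5.81-fold. Of 18 further reticulum genes, 8 of 16 measured were, led by the collagen chaperone Serpinh1 at 24.1-fold. Ddit3 (CHOP), a transcription factor of reticulum stress, was lower, at 0.242-fold. Of 5 further mitochondrial genes, 1 of 2 measured was. Immediate-early genes went the other way, with 0 of 15 higher and 5 lower.

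Over all 4 libraries 17 of the 36 members had the same leading class of the 5 in each library. The share of all genes with 1 leading class was not computed, so the count is a description only. Fibroblast-like cells led for Bag3, Hspb1, Hspb8, Cryab, Hspa9, Hspa5, Hsp90b1, Hyou1, Dnajc3, Pdia4 and Calr. T-like cells led for Dnaja1, Dnaja4 and Chordc1, macrophage-like cells for the Hspa1 pair, and neutrophil-like cells for Dnajb9. In library 3 the lead for the Hspa1 pair rested on a single cell. Chordc1, a zinc-binding partner of Hsp90, was at 80.3 CPM in T-like, 81.8 CPM in NK-like and 6.74 CPM in neutrophil-like cells. Dnaja4 was sparse, at 19.4 CPM in T-like cells and 1.06 CPM in neutrophil-like cells.

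Hsp90 and its co-chaperones differed in their highest class. Hsp90ab1 was at 5311.7 CPM in tumour/epithelial-like, 2412.4 CPM in fibroblast-like and 341 CPM in neutrophil-like cells. Fkbp4, a co-chaperone of steroid receptors, was at 141 CPM in tumour/epithelial-like and 15.8 CPM in neutrophil-like cells. Stip1 (Hop), which bridges Hsp70 and Hsp90, was at 98.5 CPM and 96.8 CPM in tumour/epithelial-like and fibroblast-like cells, and at 23.4 CPM in neutrophil-like cells. Ahsa1, which speeds the ATPase of Hsp90, was highest in NK-like cells at 90.0 CPM and lowest in basophil/mast-like cells at 39.5 CPM. The tumour/epithelial-like cells lay almost wholly in library 1, so class and library cannot be told apart for them.

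Some members were highest in small classes. Dnajb4, an Hsp40 of muscle, was at 169 CPM in pericyte-like, 68.8 CPM in NK-like and at most 42.1 CPM in the other classes. Dnajb1 and Dnaja1 were at 539 and 520 CPM in the 78 basophil/mast-like cells, on under 200 UMIs each. Dnajb6, a suppressor of aggregation, was at 273 CPM in T-like and 213 CPM in neutrophil-like cells and at 117 CPM in fibroblast-like cells. The constitutive members Hspa4 and Dnaja2 were lowest in neutrophil-like cells, at 51.2 and 60.6 CPM, and between 85.5 and 192 CPM elsewhere.

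The heat shock factors were sparse. Hsf1, the main activator of the inducible genes, was at 5.20 CPM in neutrophil-like cells and between 11.2 and 29.6 CPM in the other classes, leaving out the 24 B-like cells. Its level did not follow the Hspa1 pair across libraries, with 15.4, 16.4, 19.1 and 12.1 CPM in macrophage-like cells of libraries 1 to 4. Hsf2, a second factor of the family, was at 87.9 CPM in 298 dendritic-like cells and at or under 18.1 CPM in every other class. Its dendritic-like levels were 11.1, 45.6 and 134 CPM in libraries 1, 2 and 3, lowest in library 1, and library 4 had under 20 such cells.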

How the data were processed

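The deposited matrix holds counts of UMIs, made by the authors from 10x single cell 3′ libraries with Cell Ranger against mm10. The submitters' processing notes name version 2.1.1, the matrix header 6.1.2 and the methods another, so the version used is not settled. Cells with at least 300 genes and at most 15% mitochondrial UMIs were kept with Python 3.11.15, numpy 2.4.6, pandas 2.3.3 and scipy 1.17.1. A cell entered a class where the mean log level of its 4 highest markers, scaled to the 95% quantile, reached 0.25, was 1.25 times that of the next class and rested on at least 3 detected markers. These limits were set after the data were seen. No doublet caller was run, and leaving out the deepest 5% of cells was an alternative.

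Counts were summed per class and library where a class had at least 20 cells. Folds used genes with at least 50 CPM in the higher group (100 CPM in thinned cells), a threshold of 2-fold and a floor of 3 UMIs. Counts of members were repeated with the minimum set on the lower group alone. Thinning drew 1000 UMIs per cell with seed 1 and left out cells that had fewer. The code was tested on simulated data. All 36 members were described. Of other lists, counts and at most the 3 genes of largest fold were given. The members and lists were chosen with earlier results of these data known. The alternatives were other filters, gates, weights, denominators, thinning and leaving out each library.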

Additional observations from a re-analysis of the deposited data

Results flagged for a closer look

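In the 119 barcodes of library 3 that failed the filters and so entered no comparison, Hspa1a and Hspa1b made up 0.414% of the UMIs [0.377 to 0.454], above the removed barcodes of libraries 1, 2 and 4, which had 0.0503%, 0.0592% and 0.0232%. It is listed because a signal appeared in barcodes left out of the comparisons. A single barcode held 356 of the 460 UMIs of the pair, among 3286 UMIs with 16.3% mitochondrial, and without it the share was 0.0965%. The cause was not tested.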

How the results depend on the processing

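No paired analysis was possible because the columns carry no sample. The share of the 36 genes over all kept cells, 1.17%, was also 1.17% with at least 500 genes per cell, 0.828% after thinning, 1.14% without the deepest 5% of cells, 0.824% as a mean over cells, 1.44% without mitochondrial and ribosomal protein genes in the total, and 1.05% to 1.23% with each library left out in turn. The fibroblast-to-neutrophil ratio of that share, 3.28, was 3.59 with the stricter gate, 3.48 without the deepest cells, 3.22 as a mean over cells, 3.85 without mitochondrial and ribosomal protein genes and 2.69 to 3.86 with a library left out. For the reticulum members the ratio, 2.96, was 3.24, 3.10 and 3.42 under the stricter gate, without the deepest cells and without mitochondrial and ribosomal protein genes, and 2.55 to 3.36 with a library left out. The Hspa1 span in neutrophil-like cells, 9.41-fold, was 1.33-fold to 9.41-fold with a library left out, lowest without library 1, and the count of members spanning 2-fold there, 8, was 0 to 7, with 0 without library 1. The cause of these shifts was not tested. The counts of members with 1 leading class (14 to 21) and of members higher in fibroblast-like cells (16 to 20) stayed within 1.5 times their values of 17. The alternatives for the macrophage-like Hspa1 span (15.2-fold, and 4.27-fold to 41.5-fold) and for the fibroblast-like count were chosen after seeing the data. Of the 36 members, 15 stayed under 50 CPM in neutrophil-like cells of every library and entered no fold between libraries there.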

Other observations

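The Hspa1 UMIs of several small groups came from few cells. In library 3, 1 T-like cell held 54.6% of the pair's UMIs in its class, with 0.00569% of UMIs with it and 0.00259% without it. In library 4, 1 T-like cell held 40.0%. In library 2 the highest tumour/epithelial-like cell held 24.3% and had 11.3% mitochondrial UMIs. In library 1 macrophage-like cells, by contrast, the highest cell held 0.600%.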
